A study of Rattus with 108 samples.

Results

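Hmox1 (ENSRNOG00000014117), Hif1a (ENSRNOG00000008292) and Vegfa (ENSRNOG00000019598) were followed through skin, muscle and dorsal root ganglia (DRG) of operated rats as genes of hypoxia and heme stress. They are 3 of the 32623 genes counted and were taken by identifier. All 3 passed the filter on low counts in every fit. Hif1a encodes HIF-1α, the oxygen-labile subunit of hypoxia-inducible factor 1, whose protein is hydroxylated and destroyed when oxygen is plentiful and whose mRNA also rises in inflamed tissue. Vegfa encodes the main growth factor of new blood vessels and is a classic target of HIF-1 in low oxygen. Hmox1 encodes the inducible heme oxygenase, which splits the heme of hemoglobin and myoglobin into iron, carbon monoxide and biliverdin. It is induced by heme and oxidative stress and is strongly expressed by macrophages that clear red blood cells and damaged tissue. HIF-1α itself is controlled mainly as a protein, which RNA sequencing does not see.

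The rats had either lateral paw incision (LPI), which stood for acute postsurgical pain, or skin/muscle incision and retraction (SMIR), which stood for chronic postsurgical pain. Skin, muscle and DRG of the operated area or side were collected at 0 day and 6 hours, 2 days and 10 days after either operation, with a further SMIR group at 32 days, after perfusion with saline, which washes blood out of the vessels. The DRG were those of the segments C3 to C6 in LPI and C2 to C5 in SMIR. Each of the 27 groups of model, tissue and time held 4 libraries, 108 in all, and 0 day was the control group of its own model and tissue. The design text counts 36 rats and 108 tissue samples, whereas the extraction protocol describes pooling of several animals. A library may therefore stand for 1 rat or for a pool, and p-values weigh mean differences against the spread between these libraries. No naive or sham-operated group is named, and the models differ in operated site and possibly in batch, which cannot be told apart from the operation.

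Total counts per library ran from 19080096 to 41654479, and levels are given as CPM (counts scaled to a library total of 1000000), mean ± SD with n = 4 unless stated. Log2 changes and adjusted p-values are from edgeR's quasi-likelihood test with TMM scaling and Benjamini-Hochberg adjustment over all genes tested, and a gene is called at an adjusted p under 0.05. To see how pure the tissues were, genes at 5 CPM or more and at least 8 times higher at 0 day in 1 tissue than in each other tissue, in both models, were collected: 491 for skin, 106 for muscle and 837 for DRG. One DRG library stood apart, that of rat 4 in SMIR at 0 day, with 3.34% of its counts on DRG-enriched genes, against at least 17.5% in the other 3 libraries of its group, and 3.37% on muscle-enriched genes. In muscle, 5 LPI libraries stood apart, with 4.33% to 6.13% of counts on skin-enriched genes, against at most 0.551% in the other 31 muscle libraries. They were rat 3 at 6 hours, rats 1, 3 and 5 at 2 days and rat 4 at 10 days. Muscle-enriched genes took 7.68% to 9.56% of counts in SMIR muscle at 0 day but 0.0809% to 7.77% in LPI muscle at 0 day, where rat 1 was the lowest. Results called in LPI muscle are given with and without the 5 skin-rich libraries. The muscle list depended on the DRG library that stood apart: defined without it, the list held 182 genes, the highest SMIR DRG library at 0 day had 14.9% of counts on it, and SMIR muscle at 0 day had 27.4% to 30.7%.

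After either operation Hif1a and Hmox1 were called higher at 6 hours and at 2 days in both skin and muscle, and neither was called in DRG at any time. Vegfa was called higher in LPI skin alone, at 6 hours and 2 days, and was called lower in SMIR muscle at 2 and 10 days. A call by itself set none of them apart, since a large share of all genes moved with them. In LPI skin all 3 genes were called at 6 hours, when 54.7% of the 16077 genes tested were called in either direction, all 3 at 2 days (42% of genes) and none at 10 days (0.578%). In SMIR skin 2 of 3 were called at 6 hours (61.6% of 17317 genes), again 2 at 2 days (51.6%), 2 at 10 days (31.3%) and none at 32 days (3.56%). In LPI muscle 2 of 3 were called at 6 hours (35.9% of 16246 genes) and at 2 days (40.5%), and none at 10 days (0.32%). In SMIR muscle 2 of 3 were called at 6 hours (31.7% of 16506 genes), all 3 at 2 days (48.1%) and at 10 days (43.1%), and none at 32 days (0.0848%). In tissue sequenced in bulk, more cells of an expressing type and more RNA per cell cannot be told apart.

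**Figure D1:**
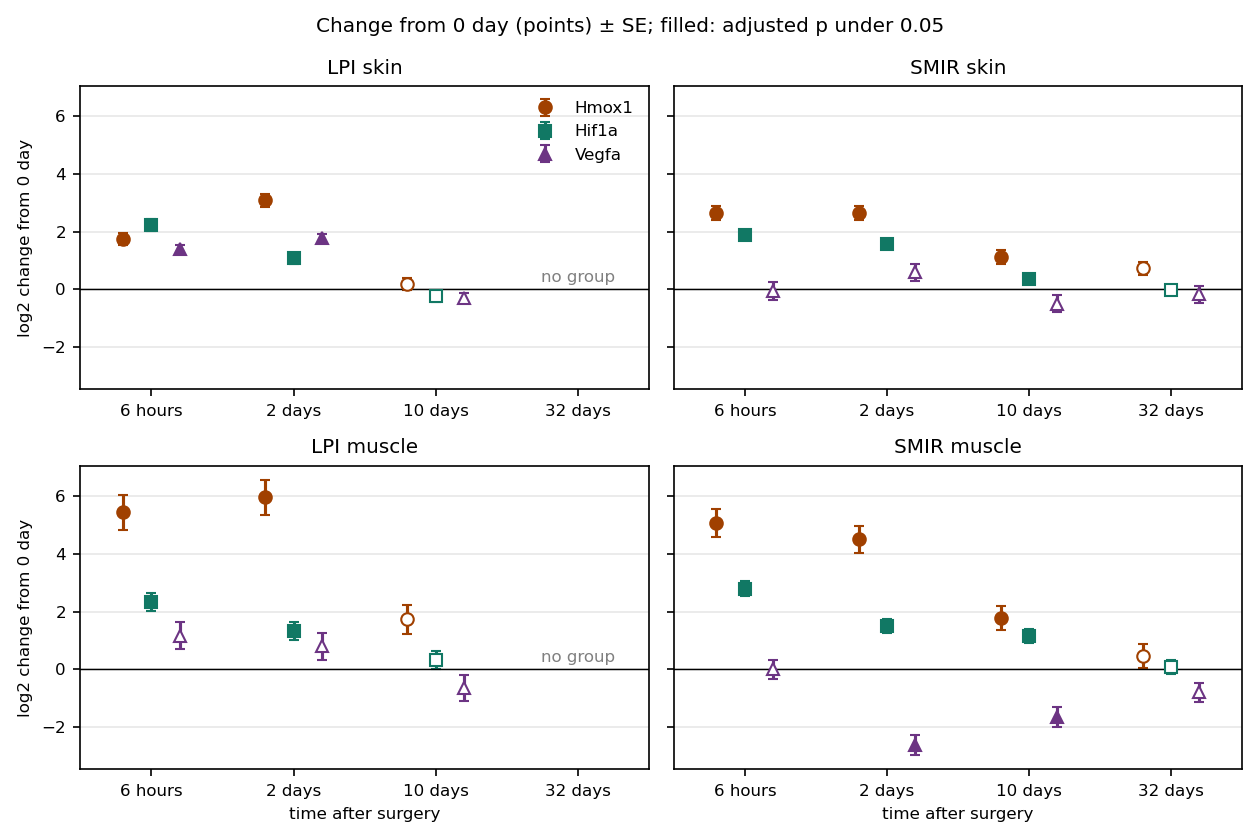
Log2 change from 0 day ± SE of Hmox1, Hif1a and Vegfa at each time after surgery (x axis) in skin (top) and muscle (bottom) of LPI (left) and SMIR (right), 4 libraries a group; filled symbols were called at an adjusted p under 0.05. Hmox1 in muscle reached changes between 4.50 and 5.95 at 6 hours and 2 days, while Vegfa in SMIR muscle fell by 2.63 at 2 days.

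Hif1a had its highest group mean at 6 hours in both skin and muscle of both models. In muscle the libraries of 6 hours and 2 days overlapped in both models. In LPI skin the 4 libraries held 187, 228, 165 and 231 CPM at 0 day and 881, 839, 642 and 948 CPM at 6 hours. At 2 days they held 464, 272, 359 and 485 CPM, and at 10 days 196, 199, 175 and 205 CPM. All 6-hour and 2-day libraries lay above every 0-day library, and those of 10 days overlapped them. The rise was 2.23 ± 0.20 (SE) on the log2 scale at 6 hours (adjusted p = 3.79e-07), where Hif1a ranked 610 of 16077 genes by size of increase, and 1.08 ± 0.20 at 2 days (adjusted p = 0.000432). At 10 days the difference was -0.24 ± 0.19 (adjusted p = 0.584). Between 6 hours and 2 days Hif1a fell by 1.15 ± 0.20 (adjusted p = 0.000247), a step at which 42.3% of all genes were called. From 2 to 10 days it fell by a further 1.31 ± 0.20 (adjusted p = 8.52e-05, 42.6% of genes).

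In SMIR skin Hif1a stood at 185, 165, 147 and 140 CPM at 0 day and at 590, 537, 547 and 486 CPM at 6 hours. It was 473, 420, 416 and 335 CPM at 2 days and 200 ± 20.5 CPM at 10 days. By 32 days its libraries lay within 139 and 147 CPM, the narrowest range of the 27 groups in proportion to the mean after SMIR DRG at the same time. The increase was 1.88 ± 0.12 at 6 hours (adjusted p = 6.54e-09) and 1.57 ± 0.12 at 2 days (adjusted p = 1.28e-07). The small rise called at 10 days, 0.35 ± 0.12 (adjusted p = 0.0353), was lost without rat 3 or 4 at 0 day or rat 4, 5 or 6 at 10 days (adjusted p from 0.0725 to 0.138). RLE scaling (0.0515) and dropping the filter on low counts (0.0687) ended it as well. Hif1a fell by 0.31 ± 0.12 from 6 hours to 2 days (adjusted p = 0.0472, 38.7% of genes called), by 1.22 ± 0.12 from 2 to 10 days (adjusted p = 1.30e-06, 33.3%) and by 0.39 ± 0.12 from 10 to 32 days (adjusted p = 0.0272, 23.6%). The first and the last of these steps each lost the call when any of 6 of the 8 libraries was left out.

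**Figure D2:**
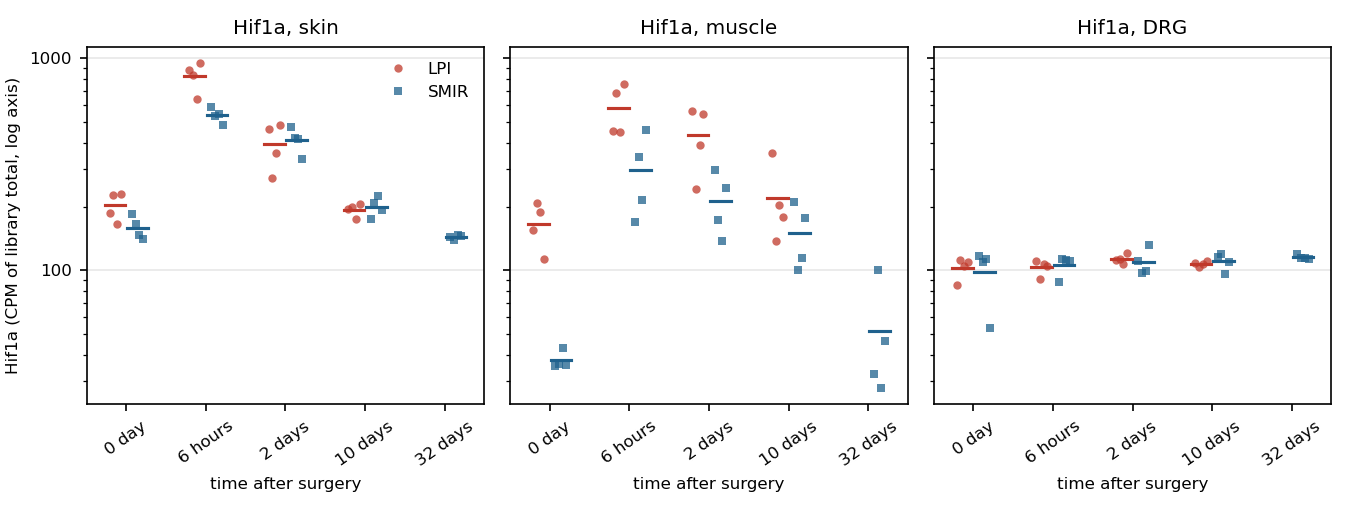
Hif1a in each library (points, CPM of the library total, log axis) by time after surgery in skin, muscle and DRG, with the mean of each group of 4 as a bar. The highest group was LPI skin at 6 hours, 828 CPM, and the lowest SMIR muscle at 0 day, 37.7 CPM; DRG libraries lay between 85.1 and 132 CPM apart from 1 SMIR library at 53.8 CPM.

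Muscle of the models started from different Hif1a levels. The LPI libraries held 154, 207, 188 and 113 CPM at 0 day and the SMIR libraries 35.6, 36.1, 43.1 and 35.9 CPM, with no overlap. With TMM scaling the log2 difference, SMIR minus LPI, was -1.28 ± 0.27 in edgeR (adjusted p = 0.00037). At 6 hours the LPI libraries rose to 453, 683, 450 and 757 CPM and the SMIR libraries to 168, 344, 214 and 460 CPM. These were increases of 2.34 ± 0.32 (adjusted p = 0.000109) and 2.79 ± 0.26 (adjusted p = 9.73e-07). At 2 days Hif1a was 567, 242, 389 and 549 CPM in LPI and 297, 173, 138 and 244 CPM in SMIR muscle, above every 0-day library in both. The changes from 0 day were 1.32 ± 0.31 (adjusted p = 0.00538) and 1.50 ± 0.25 (adjusted p = 0.000191). The LPI rise was not called with the rat number as a replicate block. On library totals, which moved the median of all genes by 0.98, the SMIR rise was 2.5 (adjusted p = 0.000176), and the ratio of mean CPM was 5.65. Without the 5 skin-rich libraries, which leaves 1 LPI library at 2 days that is taken to vary like the other groups, the LPI rise at 2 days was 1.16 and was not called (adjusted p = 0.0688), and the rise at 6 hours was 2.10 (adjusted p = 0.000317). At 10 days LPI muscle held 220 ± 95.5 CPM, a difference of 0.31 ± 0.31 from 0 day (adjusted p = 0.687) that was -0.0027 without the skin-rich libraries, and rat 4, one of the skin-rich libraries, was the highest at 357 CPM. SMIR muscle at 10 days still held 211, 101, 115 and 177 CPM, all above 0 day, a rise of 1.16 ± 0.24 (adjusted p = 0.00201), or 2.00 on library totals (adjusted p = 0.00168). By 32 days 3 of 4 SMIR libraries were between 28.0 and 46.5 CPM and rat 3 was at 101 CPM (change 0.07 ± 0.24, adjusted p = 0.923).

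The fall of Hif1a in muscle after 6 hours was called in both models with TMM scaling and in neither with library totals. From 6 hours to 2 days it fell by 1.01 ± 0.31 in LPI muscle (adjusted p = 0.0226, 31.5% of genes called) and by 1.29 ± 0.24 in SMIR muscle (adjusted p = 0.000733, 37.8%). With library totals in place of TMM factors, the LPI change was -0.42 and not called (adjusted p = 0.321), and the median of all genes moved by 0.58. On the same scale the SMIR change was -0.48 and not called (adjusted p = 0.326), and the median moved by 0.81. In the LPI comparison same-numbered libraries deviated together, and with the rat number as a replicate block the fall of 1.10 was not called (adjusted p = 0.106). It was also not called without any of 4 of the 8 libraries, or without the skin-rich libraries (-0.94, adjusted p = 0.155). From 2 to 10 days Hif1a fell by 1.01 ± 0.31 in LPI muscle (adjusted p = 0.0262, 27.9% of genes), lost without any of 5 libraries or without the skin-rich ones (-1.17, adjusted p = 0.101), whereas the difference of -0.35 ± 0.24 in SMIR muscle was not called (adjusted p = 0.420, 6.48% of genes). From 10 to 32 days it fell by 1.09 ± 0.24 in SMIR muscle (adjusted p = 0.00485, 27.4% of genes).

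Vegfa, the angiogenic ligand, went different ways in the models. In LPI skin the libraries were tightly grouped at 0 day, at 114, 121, 118 and 117 CPM, and held 300, 270, 182 and 316 CPM at 6 hours and 396, 319, 332 and 443 CPM at 2 days. No library of either time overlapped with 0 day. The increases were 1.38 ± 0.16 at 6 hours (adjusted p = 2.94e-06) and 1.77 ± 0.16 at 2 days (adjusted p = 7.29e-07). The step between them, 0.39 ± 0.15, was not called (adjusted p = 0.0510), but was without rat 2 or 5 at 6 hours or rat 3 at 2 days (adjusted p from 0.0199 to 0.0494). By 10 days Vegfa was back at 104, 116, 103 and 112 CPM, within or below the 0-day range (-0.29 ± 0.15, adjusted p = 0.364), after a fall of 2.06 ± 0.16 from 2 days (adjusted p = 2.40e-07).

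In SMIR skin Vegfa began higher than in LPI skin in CPM, but edgeR did not call the difference (0.24 ± 0.26, adjusted p = 0.471). Its libraries held 196, 192, 167 and 192 CPM at 0 day and spread out at 6 hours to 304, 105, 155 and 95.6 CPM. Rat 1 lay above and the other 3 libraries below every 0-day library, so the group mean of 165 ± 96.2 CPM describes neither. The change was -0.06 ± 0.31 (adjusted p = 0.876), and without rat 1 at 6 hours it was -0.57 and still not called (adjusted p = 0.0612). At 2 days the libraries held 259, 227, 334 and 157 CPM, a change of 0.59 ± 0.31 (adjusted p = 0.120) that was called when only these 8 libraries were fitted (0.57, adjusted p = 0.0410). Without rat 1 at 6 hours, the step from 6 hours to 2 days was an increase of 1.11 (adjusted p = 0.00313), against 0.65 ± 0.31 with it (adjusted p = 0.105). At 10 days Vegfa was 110, 101, 162 and 149 CPM, all below 0 day in CPM, at a log2 change of -0.49 ± 0.31 that was not called (adjusted p = 0.241), but was in a fit of these 8 libraries alone (-0.53, adjusted p = 0.0230). The fall from 2 to 10 days, 1.08 ± 0.31, was called (adjusted p = 0.0125) and was not without rat 4 at 2 days (-0.87, adjusted p = 0.0508). At 32 days it was 154 ± 42.9 CPM, -0.17 ± 0.31 from 0 day (adjusted p = 0.837).

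**Figure D3:**
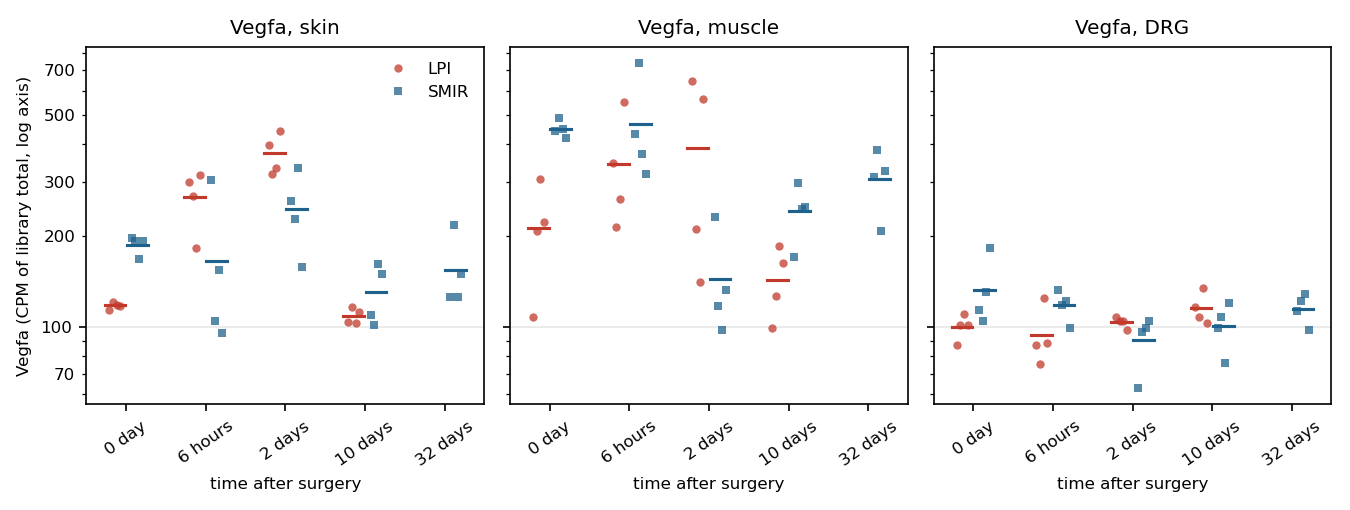
Vegfa in each library (points, CPM of the library total, log axis) by time after surgery in skin, muscle and DRG, with group means of 4 as bars. LPI skin climbs from 118 to 372 CPM by 2 days, while SMIR muscle drops from 448 CPM at 0 day to 144 CPM at 2 days and stands at 307 CPM at 32 days.

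SMIR muscle had the highest Vegfa of any group at rest. Its libraries held 441, 486, 449 and 419 CPM at 0 day and, more widely spread, 431, 738, 372 and 319 CPM at 6 hours, a difference of -0.01 ± 0.33 (adjusted p = 0.992). At 2 days they were down to 230, 117, 97.7 and 133 CPM, every one below every library of 0 day and 6 hours. The fall from 0 day was 2.63 ± 0.36 (adjusted p = 4.73e-05), and that from 6 hours 2.62 ± 0.36 (adjusted p = 4.34e-05). At 10 days the libraries held 170, 297, 244 and 249 CPM, still below 0 day, by 1.66 ± 0.34 (adjusted p = 0.00182). At 32 days they held 311, 382, 208 and 326 CPM, again below all 0-day libraries in CPM, but the log2 change of -0.80 ± 0.34 was not called (adjusted p = 0.375). The upward steps after 2 days, 0.97 ± 0.34 from 2 to 10 days (adjusted p = 0.0923) and 0.85 ± 0.34 from 10 to 32 days (adjusted p = 0.0679), were not called either. The first was called without rat 3 at 10 days (1.15, adjusted p = 0.0497), and the second without rat 4 at 10 days (1.09, adjusted p = 0.0281) or rat 3 at 32 days (0.94, adjusted p = 0.0455). Library totals in place of TMM factors moved the median of all genes by 0.98 at 2 days and 0.82 at 10 days, with 8890 genes called higher and 1176 lower at 2 days against 4138 and 3794. On that scale Vegfa was lower by -1.64 (adjusted p = 0.000322) and -0.90 (adjusted p = 0.0167).

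In LPI muscle Vegfa was called at no time. It was 108, 207, 308 and 222 CPM at 0 day, 346, 214, 264 and 548 CPM at 6 hours, 644, 210, 140 and 563 CPM at 2 days and 98.9, 126, 185 and 163 CPM at 10 days. Every later group overlapped with 0 day. The difference at 6 hours, 1.17 ± 0.46 (adjusted p = 0.0608), was called by DESeq2 (adjusted p = 0.0435), in a fit of the 8 libraries alone (0.0404), with the gene-length trend as a covariate (0.0166), without rat 3 at 0 day (0.0482) and without the skin-rich libraries (0.0221). At 2 days the pair of high libraries, rats 1 and 5, were both skin-rich, with 4.33% and 5.93% of counts on skin-enriched genes, while rat 3, with 6.13%, was not high. The difference at 2 days was 0.79 ± 0.45 (adjusted p = 0.174). Without the skin-rich libraries, which leaves only rat 4 at 2 days, at 140 CPM, it was -0.67. The fall from 2 to 10 days, 1.44 ± 0.46, was called (adjusted p = 0.0319) and was lost without any of 6 of the 8 libraries. Without the skin-rich libraries this step was a difference of 0.16, again resting on rat 4 alone at 2 days. At 10 days the change from 0 day was -0.65 ± 0.45 (adjusted p = 0.538).

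Muscle-enriched genes moved alongside Vegfa in SMIR muscle. Their share of counts, 7.68% to 9.56% at 0 day, lay between 3.18% and 8.80% by 6 hours, between 1.40% and 4.20% by 2 days, between 1.92% and 6.86% by 10 days and between 2.61% and 9.35% by 32 days. Vegfa and the median share were both lowest at 2 days. With the list of 182 genes the share was 27.4% to 30.7% at 0 day and 4.82% to 14.9% at 2 days, again with the lowest median at 2 days. At 32 days rat 3 had the lowest share and, in CPM of the library total, the highest Vegfa, 382 CPM, but with TMM-scaled totals it held 277 CPM, below rats 1 and 5 at 417 CPM each. In LPI muscle the share was 0.0443% to 0.288% at 2 days, when rats 1 and 5 held the most Vegfa. The part of tissue makeup in the Vegfa changes was not tested.

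**Figure D4:**
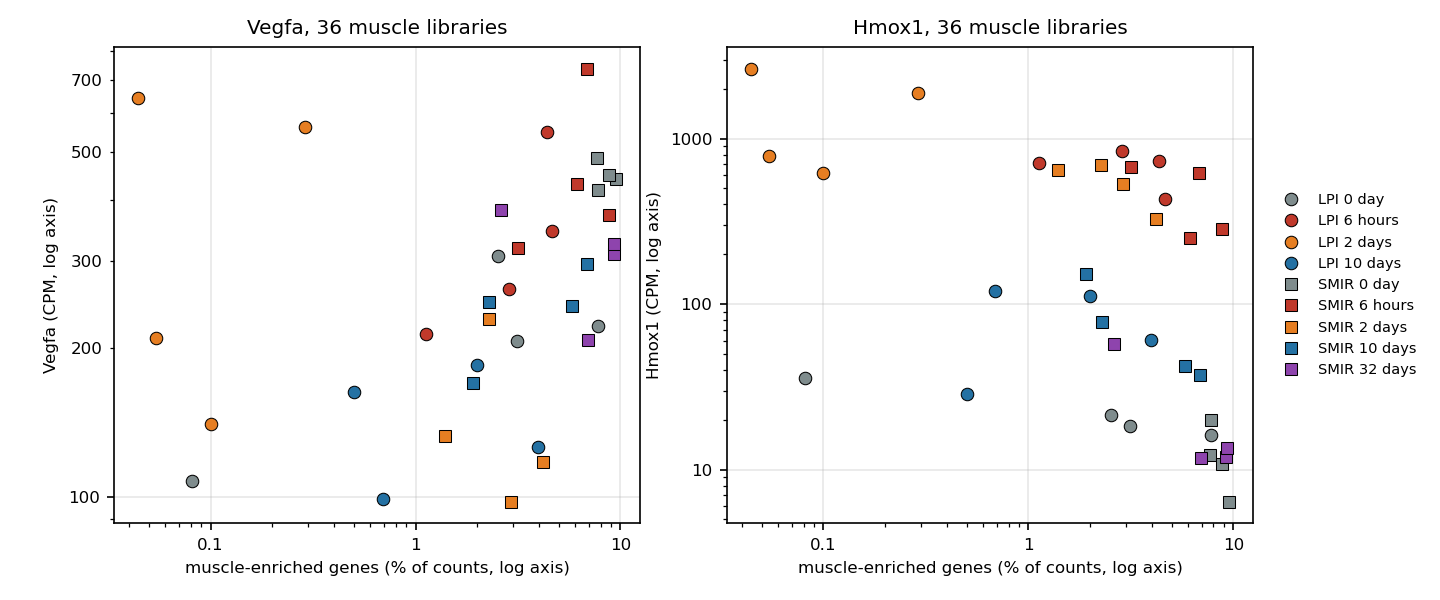
Vegfa (left) and Hmox1 (right) against the share of counts on 106 muscle-enriched genes in the 36 muscle libraries, all axes log; circles are LPI, squares SMIR, and colour gives the time. Hmox1 at 6 hours and 2 days lies above every other library at any share, whereas the 2-day SMIR libraries hold 97.7 to 230 CPM of Vegfa at 1.40% to 4.20% of counts on muscle-enriched genes.

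Hmox1, the heme-degrading enzyme, showed the widest span of the trio, from 11.4 CPM in SMIR DRG at 10 days to 1483 CPM in LPI muscle at 2 days. In LPI skin it was 78.7, 63.2, 74.6 and 82.5 CPM at 0 day, 215, 197, 266 and 192 CPM at 6 hours and 429, 448, 695 and 769 CPM at 2 days. The groups did not overlap, and each time lay above the one before. The changes from 0 day were 1.74 ± 0.21 (adjusted p = 6.48e-06) and 3.08 ± 0.22 (adjusted p = 1.17e-07). The step from 6 hours to 2 days was 1.34 ± 0.21 (adjusted p = 0.000117). Hif1a fell over the same step. By 10 days Hmox1 was 113, 93.7, 93.8 and 78.4 CPM, 0.18 ± 0.21 from 0 day (adjusted p = 0.715), after a fall of 2.90 ± 0.22 from 2 days (adjusted p = 2.34e-07).

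In SMIR skin Hmox1 was 41.9, 45.8, 35.5 and 33.8 CPM at 0 day and reached its plateau by 6 hours, at 248, 212, 177 and 265 CPM, with 243, 240, 173 and 211 CPM at 2 days. The increases were 2.64 ± 0.24 (adjusted p = 9.08e-08) and 2.66 ± 0.24 (adjusted p = 3.23e-07), and the step between them 0.03 ± 0.22 (adjusted p = 0.940). With the gene-length trend of each library as a covariate the increase at 2 days was 1.47 and not called (adjusted p = 0.119), in a fit that called 157 genes at that time instead of 8930. The trend was 0.0897 to 0.1277 at 0 day and -0.0908 to -0.0533 at 2 days. Without overlap it cannot be told apart from time, so no conclusion is drawn from the lost call. At 10 days the libraries held 70.3, 86.3, 87.7 and 92.3 CPM, all above 0 day, by 1.12 ± 0.23 (adjusted p = 0.00133). From 2 to 10 days Hmox1 fell by 1.54 ± 0.23 (adjusted p = 7.00e-05). At 32 days they held 65.1, 36.3, 87.3 and 47.8 CPM. That difference of 0.73 ± 0.23 was not called (adjusted p = 0.0835), but was by DESeq2 (adjusted p = 0.0345) and without rat 3 at 32 days (0.92, adjusted p = 0.0100). The step from 10 days, -0.39 ± 0.23 (adjusted p = 0.224), was called without rat 4 at 32 days (-0.72, adjusted p = 0.0108).

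**Figure D5:**
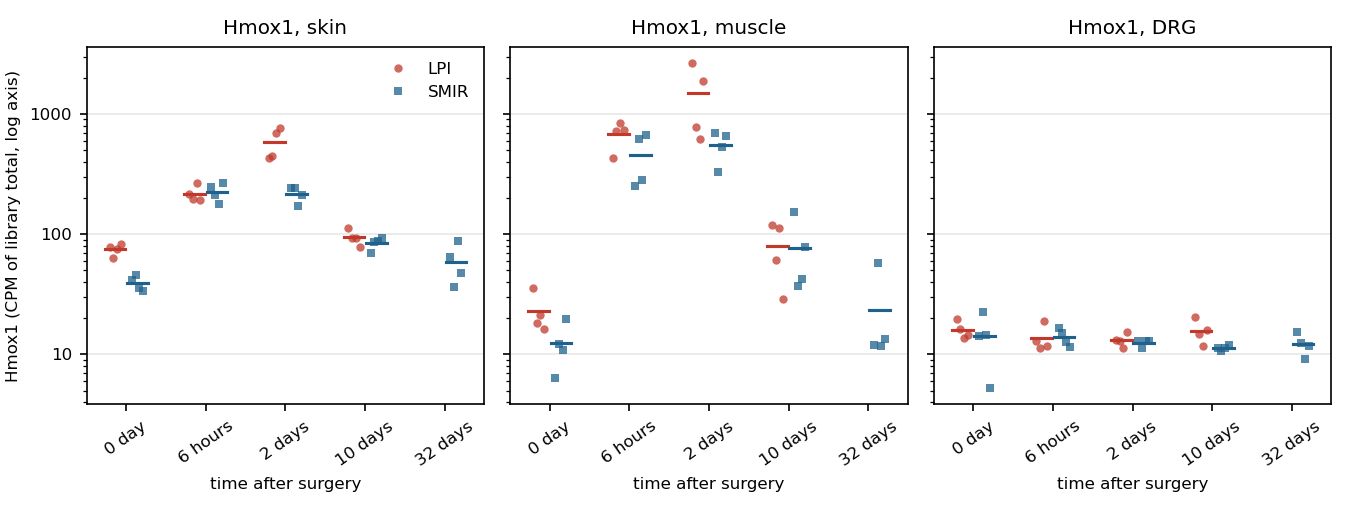
Hmox1 in each library (points, CPM of the library total, log axis) by time after surgery in skin, muscle and DRG, with group means of 4 as bars. In muscle it goes from 22.9 to 1483 CPM in LPI and from 12.3 to 550 CPM in SMIR by 2 days, while DRG means stay between 11.4 and 16.1 CPM.

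The rise of Hmox1 was steepest in muscle. In LPI muscle it was 35.8, 18.3, 21.3 and 16.1 CPM at 0 day and 432, 716, 842 and 736 CPM at 6 hours, 29.8 times the 0-day mean in CPM. At 2 days it was 2644, 782, 619 and 1889 CPM, 64.9 times that mean. Muscle-enriched genes took 0.0443% to 0.288% of counts in these 2-day libraries. At 0 day they took 0.0809% in rat 1 and 2.52% to 7.77% in the other libraries. The part of tissue makeup in the Hmox1 rise was not tested. The highest pair at 2 days, rats 1 and 5, were the same libraries that held the most Vegfa. The log2 changes were 5.44 ± 0.60 (adjusted p = 2.30e-05) and 5.95 ± 0.62 (adjusted p = 0.000112), ranks 301 and 302 of 16246. Without the skin-rich libraries they were 5.27 (adjusted p = 0.00019) and 4.69 (adjusted p = 0.00667), the latter resting on the single remaining 2-day library at 619 CPM. The step from 6 hours to 2 days, 0.51 ± 0.50, was not called (adjusted p = 0.470) and was -0.59 without the skin-rich libraries (adjusted p = 0.634). At 10 days Hmox1 held 120, 60.8, 112 and 28.7 CPM, a fall of 4.22 ± 0.57 from 2 days (adjusted p = 0.000744). This fall was not called with the rat number as a replicate block. Without the skin-rich libraries, 3 of them at 2 days and 1 at 10 days, the change was -3.20 (adjusted p = 0.0444). Its difference of 1.73 ± 0.51 from 0 day was not called (adjusted p = 0.138), but was by DESeq2 (adjusted p = 0.0158).

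In SMIR muscle Hmox1 was 6.39, 12.3, 10.8 and 19.8 CPM at 0 day, 252, 620, 283 and 674 CPM at 6 hours and 694, 327, 530 and 650 CPM at 2 days. No library of either time came near the 0-day range. The changes were 5.06 ± 0.49 (adjusted p = 1.41e-06) and 4.50 ± 0.47 (adjusted p = 8.34e-06). On library totals the change at 2 days was 5.48 (adjusted p = 3.20e-05), and the ratio of mean CPM was 44.7. With TMM scaling the step between 6 hours and 2 days, -0.55 ± 0.41, was not called (adjusted p = 0.308). At 10 days it was 152, 37.1, 42.3 and 77.8 CPM, above every 0-day library, by 1.78 ± 0.42 (adjusted p = 0.00392), after a fall of 2.72 ± 0.44 since 2 days (adjusted p = 0.00176). At 32 days 3 libraries were back between 11.7 and 13.5 CPM while rat 3 held 57.3 CPM. The difference from 0 day was 0.47 ± 0.41 (adjusted p = 0.652). The last step, a fall of 1.32 ± 0.42 from 10 days (adjusted p = 0.0280), was lost without any of 5 of the 8 libraries. Rat 3 at 32 days also had the highest Hif1a of its group and the lowest muscle-enriched share, 2.61% against 6.95% to 9.35%. The gene-length trend as a covariate ended the 10-day calls of Hmox1 (0.91, adjusted p = 0.128) and Hif1a (0.68, adjusted p = 0.0538) in SMIR muscle. The trend was -0.0776 to -0.0408 at 0 day and -0.0019 to 0.1175 at 10 days, so it cannot be told apart from time there.

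DRG showed no call of the 3 genes in any of 7 comparisons with 0 day. Their means over time were 11.4 to 16.1 CPM for Hmox1, 98.3 to 115 CPM for Hif1a and 90.7 to 133 CPM for Vegfa. In LPI DRG, of 16400 genes, edgeR called 0% at 6 hours, 19.3% at 2 days and 14.2% at 10 days, with log2 changes of the 3 genes between -0.43 and 0.09. These shares depended on single libraries. At 2 days the genes called ran from 0 without rat 5 at 2 days to 4681 without rat 4 at 0 day. At 10 days they ran from 0 without rat 1 at 0 day to 4363 without rat 4 at 0 day. In SMIR DRG edgeR called 0% of 17134 genes at 6 hours, 0% at 2 days, 0% at 10 days and 0% at 32 days. At an unadjusted p under 0.05 between 1172 and 1602 genes passed in these SMIR comparisons and 1179 in LPI at 6 hours, while DESeq2 called 14 to 18 genes in the SMIR comparisons and 55 in LPI at 6 hours. The Vegfa difference of -0.69 ± 0.23 in SMIR DRG at 2 days (adjusted p = 0.476) involved the library that stood apart, rat 4 at 0 day, which held 182 CPM against 105 to 130 in the other 3. Without it the difference was -0.32 (adjusted p = 0.946). The same library held the lowest Hif1a of all DRG libraries, 53.8 CPM, and the lowest Hmox1, 5.27 CPM. Without it SMIR DRG again gave no call at any of the 4 times.

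Vegfa was the gene of the 3 whose response was called different between the models in both skin and muscle. In skin, the change from 0 day in SMIR minus that in LPI was -1.48 ± 0.37 for Vegfa at 6 hours (adjusted p = 0.00222) and -1.22 ± 0.37 at 2 days (adjusted p = 0.0179). The second was not called with the gene-length trend as a covariate (-1.17, adjusted p = 0.0598). In skin of both models the trend at 2 days did not overlap with 0 day, so it cannot be told apart from time. Hmox1 rose more in SMIR skin at 6 hours, by 0.86 ± 0.32 (adjusted p = 0.0322), and at 10 days, by 0.92 ± 0.32 (adjusted p = 0.0484). These calls were lost without any of 8 and any of 12 of 16 libraries, to adjusted p of at most 0.0638 and 0.0949. The Hmox1 levels themselves were close at 6 hours, 217 ± 33.9 CPM in LPI and 226 ± 39.1 CPM in SMIR, while at 0 day they were 74.8 ± 8.35 and 39.2 ± 5.61 CPM. At 2 days the Hmox1 difference was -0.46 ± 0.32 (adjusted p = 0.323), and it was called with the gene-length trend as a covariate (-0.92, adjusted p = 0.0445). The same covariate, library totals and an unfiltered table each ended the call at 10 days (adjusted p = 0.138, 0.0724 and 0.0629). For Hif1a the difference was -0.38 ± 0.23 at 6 hours (adjusted p = 0.206), 0.45 ± 0.23 at 2 days (adjusted p = 0.173) and 0.57 ± 0.23 at 10 days (adjusted p = 0.102), the last called without rat 3 of LPI at 0 day (0.69, adjusted p = 0.0454). Of the 17584 genes tested, 37.9% were called at 6 hours, 22% at 2 days and 13.9% at 10 days.

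In muscle the Vegfa change in SMIR minus that in LPI was -3.55 ± 0.59 at 2 days (adjusted p = 0.000548), the one call of the 3 genes there. It was -1.95 and not called without the skin-rich libraries (adjusted p = 0.112), 3 of which are LPI libraries of that time. At 6 hours and 10 days it was -1.16 ± 0.57 (adjusted p = 0.241) and -1.08 ± 0.57 (adjusted p = 0.196). For Hmox1 the difference was -0.39 ± 0.63 at 6 hours (adjusted p = 0.778) and -1.58 ± 0.64 at 2 days (adjusted p = 0.0920), the latter -0.16 without the skin-rich libraries (adjusted p = 0.980), and for Hif1a it was 0.44 ± 0.37 and 0.03 ± 0.37 (adjusted p = 0.527 and 0.978). At 10 days the differences were -0.04 ± 0.64 for Hmox1 (adjusted p = 0.996) and 0.75 ± 0.37 for Hif1a (adjusted p = 0.163). The Hif1a difference was called on library totals (1.59, adjusted p = 0.0317), where the median of all genes moved by 0.81, and without the skin-rich libraries (1.19, adjusted p = 0.0331). The share of the 17271 genes called was 5.02% at 6 hours, 13% at 2 days and 14.7% at 10 days. In DRG none of the 3 genes was called, among 17367 genes of which 0% were called at 6 hours, 5.57% at 2 days and 0.0115% at 10 days. The genes called at 2 days ran from 0 without rat 5 of LPI at 2 days to 2108 without rat 3 of SMIR at 0 day. For the 6-hour comparison 1550 genes had an unadjusted p under 0.05 and DESeq2 called 28.

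The 0-day groups already differed. In skin, SMIR against LPI at 0 day was -1.36 ± 0.23 for Hmox1 (adjusted p = 1.20e-05) and -0.78 ± 0.17 for Hif1a (adjusted p = 0.000253), where 51.1% of genes were called. With the gene-length trend as a covariate both missed the threshold (-0.73, adjusted p = 0.0546, and -0.54, adjusted p = 0.0916). That trend was -0.0292 to 0.0026 in LPI and 0.0897 to 0.1277 in SMIR, so it cannot be told apart from the model. For Vegfa the difference was 0.24 ± 0.26 (adjusted p = 0.471), although the libraries did not overlap in CPM. On library totals it was 0.67 and called (adjusted p = 0.0258), with the median of all genes moved by 0.43, and it was also called from the 0-day libraries alone (0.22, adjusted p = 0.0240). In muscle, Hif1a was lower in SMIR by -1.28 ± 0.27 (adjusted p = 0.00037) and Vegfa higher by 1.93 ± 0.42 (adjusted p = 0.000521), while Hmox1 differed by -0.06 ± 0.45 (adjusted p = 0.933), where 47.4% of genes were called. Library totals moved the median of all genes there by -0.85, with 1328 genes called higher and 8380 lower, against 4133 and 4057. Muscle-enriched genes took 0.0809% to 7.77% of counts in LPI and 7.68% to 9.56% in SMIR muscle at 0 day. The part of tissue makeup in these differences was not tested. In DRG 19.1% of genes were called, and the differences were -0.27 ± 0.22 for Hmox1, -0.11 ± 0.09 for Hif1a and 0.47 ± 0.19 for Vegfa (adjusted p = 0.418, 0.428 and 0.0859). Without rat 4 of SMIR the Vegfa difference was 0.10 (adjusted p = 0.685), whereas without rat 1 or rat 2 of SMIR it was called (0.58 and 0.61, adjusted p = 0.0339 and 0.0310).

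Levels of different genes were compared in the deposited FPKM, which take gene length into account. Hmox1 exceeded Hif1a in every muscle library of 6 hours and 2 days, by 2.43 to 4.76 times in LPI and 3.37 to 4.58 times in SMIR at 6 hours, and by 4.05 to 11.9 and 4.79 to 9.75 times at 2 days. At 0 day the ratio was 0.224 to 0.590 in LPI and 0.455 to 1.40 in SMIR muscle. In skin at 2 days Hmox1 was 2.35 to 4.92 times Hif1a in LPI and at least 1.06 times in SMIR. Vegfa in SMIR muscle was 11.7 to 15.1 times Hif1a at 0 day, 0.609 to 0.869 times at 2 days and 4.24 to 10.8 times at 32 days. In LPI skin the same ratio lay between 0.571 and 0.803 at 0 day, between 0.317 and 0.381 at 6 hours and between 0.956 and 1.32 at 2 days. In DRG Hmox1 was below Hif1a in every library, with group medians of the ratio between 0.265 and 0.364, and the medians for Vegfa lay between 0.938 and 1.20. The Vegfa ratio reached 3.80 in the SMIR library that stood apart. Among all genes with a mean FPKM above 0, Hmox1 lay above 99.5% in LPI muscle at 2 days and above 62.6% in SMIR DRG at 10 days.

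Ordered by mean CPM over the 27 groups, Hmox1 was led by LPI muscle at 2 days and 6 hours and LPI skin at 2 days, Hif1a by the 6-hour groups of LPI skin, LPI muscle and SMIR skin, and Vegfa by SMIR muscle at 6 hours and 0 day. Neighbours in these orders overlapped in 25 of 26 pairs for Hmox1 and Hif1a and in all 26 for Vegfa. The separate pairs were SMIR skin at 2 days (217 CPM) above LPI skin at 10 days for Hmox1, and SMIR skin at 32 days (143 CPM) above the next group for Hif1a. Spread between libraries was widest in muscle, where the median relative SD was 48.2% for Hmox1, 34.4% for Hif1a and 38.9% for Vegfa, against 15.1%, 12.5% and 22.4% in skin and 16.3%, 9.22% and 11.9% in DRG. Over the 21 groups after 0 day, the gene whose mean change from 0 day was most like that of Hmox1 among 15724 genes was ENSRNOG00000019822 (Pearson r = 0.956), and for Vegfa it was ENSRNOG00000056596 (r = 0.843). These values are descriptions, since the groups of a model and tissue share their 0-day libraries.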

How the data were processed

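RNA of skin, muscle and DRG was sequenced from strand-specific libraries, per the labels' protocols. The authors deposited raw read counts per gene and FPKM values per gene for each model and tissue. The submitters' processing notes name FastQC 0.11.2, STAR, StringTie and the builds rn6 and hg38, with no role given; counting settings are not given in the sources used here. Columns with time code 1 were taken as 6 hours, the one labelled time with no code of its own.

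Counts were tested with edgeR 4.0.16 (R 4.3.3; filterByExpr, TMM, robust quasi-likelihood fit), all times of a model and tissue in 1 fit and both models of a tissue in 1 fit for differences between models; SE is the log2 change divided by the square root of F. The fit was tested on counts simulated for LPI skin only, so this test does not cover muscle, DRG or the differences between models. CPM are counts scaled to a library total of 1000000. Alternatives were DESeq2 1.42.0, RLE scaling, library totals, no filter, the gene-length trend, only the groups compared, the rat number as a block and each library left out; leaving out the skin-rich muscle libraries, and defining tissue genes without 1 DRG library, were chosen after seeing the data. Total counts of 19080096 to 41654479 per library set the precision.

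Rats of different times are different animals. Same-numbered libraries deviated together most clearly between LPI muscle at 6 hours and 2 days (correlations from 0.254 to 0.469). All correlations were also positive between SMIR muscle at 10 and 32 days (0.0998 to 0.373). The same held between SMIR DRG at 6 hours and 32 days (0.0202 to 0.294). The labels number 4 replicates per group, and p-values weigh mean differences against the spread between libraries. Gene symbols of other genes are not paired with these identifiers in the tables used, so lists of pathway genes and cell type markers were not applied, the tissues were not checked against named markers, and the gene most like Hmox1 and Vegfa is given by identifier: the highest Pearson correlation of changes in mean log2(CPM + 0.5) among genes at a mean of at least 1 CPM. The 3 genes and the lists were chosen with earlier results of these data known.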

Additional observations from a re-analysis of the deposited data

Results flagged for a closer look

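Among 81 groups of 4 libraries tested for a library far from the others, 6 had one, and chance flags about 1 in 20 groups. Hmox1 in SMIR muscle at 32 days was 57.3 CPM in rat 3, against 11.7 to 13.5 CPM in the others. Hmox1 in SMIR DRG at 2 days was 11.3 CPM in rat 3, against at least 12.8 CPM. Hif1a in SMIR muscle at 0 day was 43.1 CPM in rat 3, against 35.6 to 36.1 CPM. Hif1a in SMIR DRG was 53.8 CPM in rat 4 at 0 day, against 110 to 117 CPM, and 87.9 CPM in rat 1 at 6 hours, against 111 to 113 CPM. Muscle-enriched genes took 3.37% of counts in the first of these DRG libraries and 1.05% in the second; their part in the values was not tested. Vegfa in SMIR skin at 0 day was 167 CPM in rat 3, against 192 to 196 CPM.

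Responses that differed between the models by a test of the difference were those of Hmox1 in skin at 6 hours (0.86 on the log2 scale, SMIR minus LPI) and 10 days (0.92), and those of Vegfa in skin at 6 hours (-1.48) and 2 days (-1.22) and in muscle at 2 days (-3.55). The Hmox1 calls at 6 hours and 10 days were lost without any of 8 and any of 12 of 16 libraries. The Vegfa difference in muscle was smaller and lost the call without the skin-rich LPI libraries, which leaves a single LPI library at 2 days. Operated site, animals and any batch cannot be told apart from the model.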

How the results depend on the processing

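Of 2160 values of the 3 genes under other settings, 82 changed sign, and 1 of these was called under either setting: the fall of Vegfa in LPI muscle from 2 to 10 days. The counts of all genes called moved by over 1.5 times in 16 of 43 comparisons with DESeq2, 0 with RLE scaling, 9 with library totals, 5 with no filter, 21 with the gene-length trend, 13 with only the groups compared and 13 of 37 with the replicate block, and in 5 of 9 without the skin-rich libraries. Library totals moved the median log2 change of all genes by -0.85 (muscle at 0 day between models) to 1.04 (muscle at 2 days between models). CPM from TMM-scaled totals moved 16 of 63 group means against 0 day by more than 1 SD, and deposited FPKM moved 0. Of 81 tissue shares of groups, 43 moved with tissue genes defined without the DRG library that stood apart and 73 with genes enriched 4 times. Outside the step in LPI muscle from 6 hours to 2 days, same-numbered libraries deviated together less clearly or not at all. LPI at 10 days shares too few numbers with 0 day for a block. Values are log2 changes from 0 day unless a later start is named, and the cause of each change was not tested. Between some compared groups, such as SMIR skin at 0 day and 2 days, the gene-length trend did not overlap. It cannot be told apart from the group there, and no conclusion is drawn from calls it changed. With DESeq2, Hmox1 SMIR skin 2 days from 6 hours (-0.0020), Vegfa SMIR muscle 6 hours (0.020), Hmox1 muscle SMIR minus LPI, 10 days (0.081) changed sign. With DESeq2, Vegfa LPI skin 2 days from 6 hours (0.40), Hmox1 SMIR skin 32 days (0.70), Vegfa LPI muscle 6 hours (1.06), Hmox1 LPI muscle 10 days (1.72), Vegfa SMIR muscle 10 days from 2 days (0.98), Vegfa SMIR muscle 32 days from 10 days (0.81) gained a call. With library totals, Hmox1 SMIR skin 2 days from 6 hours (-0.058), Vegfa LPI muscle 2 days from 6 hours (0.18), Vegfa SMIR muscle 6 hours (0.052), Hmox1 SMIR muscle 2 days from 6 hours (0.27), Hmox1 muscle SMIR minus LPI, 6 hours (0.32), Hmox1 muscle SMIR minus LPI, 10 days (0.84), Hif1a LPI DRG 6 hours (0.0086), Vegfa LPI DRG 2 days (0.049), Hif1a LPI DRG 10 days (0.063) changed sign. With library totals, Hmox1 skin SMIR minus LPI, 10 days (0.76), Hif1a LPI muscle 2 days from 6 hours (-0.42), Hif1a SMIR muscle 2 days from 6 hours (-0.48) lost the call. With library totals, Vegfa LPI skin 2 days from 6 hours (0.48), Vegfa skin SMIR minus LPI, 0 day (0.67), Hif1a muscle SMIR minus LPI, 10 days (1.59) gained a call. With the gene-length trend as a covariate, Vegfa SMIR skin 6 hours (0.11), Hmox1 SMIR skin 2 days from 6 hours (-0.51), Vegfa SMIR muscle 6 hours (0.017), Hif1a SMIR muscle 32 days (-0.12), Hif1a muscle SMIR minus LPI, 2 days (-0.21), Hmox1 muscle SMIR minus LPI, 0 day (0.019), Hif1a LPI DRG 2 days (-0.10), Vegfa LPI DRG 10 days (-0.13), Hmox1 SMIR DRG 6 hours (0.088), Hmox1 DRG SMIR minus LPI, 10 days (0.034) changed sign. With the gene-length trend as a covariate, Hif1a LPI skin 10 days from 2 days (-0.99), Hmox1 SMIR skin 2 days (1.47), Hif1a SMIR skin 10 days (0.32), Hif1a SMIR skin 2 days from 6 hours (-0.41), Hmox1 SMIR skin 10 days from 2 days (-0.50), Vegfa SMIR skin 10 days from 2 days (-1.33), Vegfa skin SMIR minus LPI, 2 days (-1.17), Hmox1 skin SMIR minus LPI, 10 days (0.68), Hmox1 skin SMIR minus LPI, 0 day (-0.73), Hif1a skin SMIR minus LPI, 0 day (-0.54), Hif1a LPI muscle 10 days from 2 days (-1.08), Hmox1 SMIR muscle 10 days (0.91), Hif1a SMIR muscle 10 days (0.68), Hmox1 SMIR muscle 32 days from 10 days (-0.82) lost the call. With the gene-length trend as a covariate, Hmox1 SMIR skin 32 days from 10 days (-0.68), Hmox1 skin SMIR minus LPI, 2 days (-0.92), Vegfa LPI muscle 6 hours (1.68), Hmox1 SMIR muscle 2 days from 6 hours (-1.16), Vegfa SMIR muscle 10 days from 2 days (1.00), Hif1a DRG SMIR minus LPI, 2 days (0.31), Hif1a DRG SMIR minus LPI, 0 day (-0.28), Vegfa DRG SMIR minus LPI, 0 day (0.57) gained a call. With RLE scaling, Hmox1 SMIR skin 2 days from 6 hours (-0.0037), Vegfa SMIR muscle 6 hours (0.023), Hmox1 muscle SMIR minus LPI, 10 days (0.077), Hif1a LPI DRG 2 days (-0.00049) changed sign. With RLE scaling, Hif1a SMIR skin 10 days (0.33) lost the call. With no filter on low counts, Hmox1 SMIR DRG 6 hours (0.0020) changed sign. With no filter on low counts, Hif1a SMIR skin 10 days (0.31), Hif1a SMIR skin 2 days from 6 hours (-0.31), Hmox1 skin SMIR minus LPI, 10 days (0.92) lost the call. With only the groups compared, Hmox1 SMIR skin 2 days from 6 hours (-0.0017), Vegfa SMIR muscle 6 hours (0.10) changed sign. With only the groups compared, Hif1a SMIR skin 32 days from 10 days (-0.36), Hif1a LPI muscle 2 days from 6 hours (-0.92), Hif1a LPI muscle 10 days from 2 days (-0.97), Vegfa LPI muscle 10 days from 2 days (-1.40), Hmox1 SMIR muscle 32 days from 10 days (-1.31) lost the call. With only the groups compared, Vegfa SMIR skin 2 days (0.57), Vegfa SMIR skin 10 days (-0.53), Vegfa skin SMIR minus LPI, 0 day (0.22), Vegfa LPI muscle 6 hours (1.10) gained a call. With the rat number as replicate block, Hmox1 LPI muscle 2 days from 6 hours (-0.015), Hmox1 muscle SMIR minus LPI, 0 day (0.0028), Hmox1 SMIR DRG 6 hours (0.063), Hmox1 SMIR DRG 2 days (0.059) changed sign. With the rat number as replicate block, Hif1a SMIR skin 2 days from 6 hours (-0.24), Hif1a LPI muscle 2 days (1.29), Hif1a LPI muscle 2 days from 6 hours (-1.10), Hmox1 LPI muscle 10 days from 2 days (-3.61), Hif1a LPI muscle 10 days from 2 days (-0.70), Vegfa LPI muscle 10 days from 2 days (-1.60), Hmox1 SMIR muscle 32 days from 10 days (-1.25) lost the call. With the skin-rich muscle libraries left out, Vegfa LPI muscle 2 days (-0.67), Hif1a LPI muscle 10 days (-0.0027), Hmox1 LPI muscle 2 days from 6 hours (-0.59), Vegfa LPI muscle 10 days from 2 days (0.16), Hmox1 muscle SMIR minus LPI, 10 days (0.35) changed sign. With the skin-rich muscle libraries left out, Hif1a LPI muscle 2 days (1.16), Hif1a LPI muscle 2 days from 6 hours (-0.94), Hif1a LPI muscle 10 days from 2 days (-1.17), Vegfa muscle SMIR minus LPI, 2 days (-1.95) lost the call. With the skin-rich muscle libraries left out, Vegfa LPI muscle 6 hours (1.20), Hif1a muscle SMIR minus LPI, 10 days (1.19) gained a call.

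Leaving out 1 library at a time changed a sign or a call, in at least 1 case, for these results, given with their lowest and highest values: Hif1a DRG SMIR minus LPI, 0 day (-0.17 to 0.023), Hif1a DRG SMIR minus LPI, 2 days (-0.013 to 0.17), Hif1a DRG SMIR minus LPI, 6 hours (-0.015 to 0.17), Hif1a LPI DRG 2 days (-0.048 to 0.052), Hif1a LPI DRG 6 hours (-0.088 to 0.011), Hif1a LPI muscle 10 days (-0.0028 to 0.43), Hif1a LPI muscle 10 days from 2 days (-1.30 to -0.82), Hif1a LPI muscle 2 days from 6 hours (-1.20 to -0.82), Hif1a SMIR DRG 10 days (-2.5e-05 to 0.18), Hif1a SMIR DRG 2 days (-0.011 to 0.18), Hif1a SMIR DRG 6 hours (-0.039 to 0.14), Hif1a SMIR muscle 32 days (-0.12 to 0.21), Hif1a SMIR skin 10 days (0.27 to 0.42), Hif1a SMIR skin 2 days from 6 hours (-0.41 to -0.22), Hif1a SMIR skin 32 days (-0.10 to 0.037), Hif1a SMIR skin 32 days from 10 days (-0.45 to -0.31), Hif1a muscle SMIR minus LPI, 10 days (0.63 to 1.19), Hif1a muscle SMIR minus LPI, 2 days (-0.049 to 0.39), Hif1a skin SMIR minus LPI, 10 days (0.49 to 0.69), Hmox1 DRG SMIR minus LPI, 10 days (-0.39 to 0.11), Hmox1 SMIR DRG 2 days (-0.41 to 0.10), Hmox1 SMIR DRG 32 days (-0.47 to 0.024), Hmox1 SMIR DRG 6 hours (-0.22 to 0.27), Hmox1 SMIR muscle 32 days (-0.014 to 0.75), Hmox1 SMIR muscle 32 days from 10 days (-1.80 to -0.86), Hmox1 SMIR skin 2 days from 6 hours (-0.074 to 0.11), Hmox1 SMIR skin 32 days (0.40 to 0.92), Hmox1 SMIR skin 32 days from 10 days (-0.72 to -0.20), Hmox1 muscle SMIR minus LPI, 0 day (-0.35 to 0.14), Hmox1 muscle SMIR minus LPI, 10 days (-0.35 to 0.35), Hmox1 skin SMIR minus LPI, 10 days (0.84 to 1.09), Hmox1 skin SMIR minus LPI, 6 hours (0.79 to 0.98), Vegfa DRG SMIR minus LPI, 0 day (0.10 to 0.61), Vegfa DRG SMIR minus LPI, 6 hours (-0.30 to 0.22), Vegfa LPI muscle 10 days from 2 days (-1.72 to -1.03), Vegfa LPI muscle 6 hours (0.92 to 1.43), Vegfa LPI skin 2 days from 6 hours (0.24 to 0.49), Vegfa SMIR DRG 6 hours (-0.44 to 0.087), Vegfa SMIR muscle 10 days from 2 days (0.75 to 1.26), Vegfa SMIR muscle 32 days from 10 days (0.67 to 1.09), Vegfa SMIR muscle 6 hours (-0.30 to 0.22), Vegfa SMIR skin 10 days from 2 days (-1.25 to -0.87), Vegfa SMIR skin 2 days from 6 hours (0.44 to 1.11), Vegfa SMIR skin 6 hours (-0.57 to 0.10).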
